A study of Homo sapiens with 6 samples.

Results

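The genes described here are those of the methionine cycle together with METTL16, the methyltransferase that controls an intron of MAT2A. They were chosen by gene symbol: MAT1A, MAT2A, MAT2B, AHCY, AHCYL1, METTL16, CBS, MTR and MTRR. These are 9 of the 60607 genes in the files, with 99 of 234326 transcripts. RNA came from PLC/PRF/5, an established line of human hepatocellular carcinoma, 48 h after transfection. The siSlu7 libraries (3) came from cells given siRNAs against SLU7, a splicing factor of the second catalytic step, and the siGL2 libraries (3) from cells given an irrelevant siRNA. They are called knockdown 1 to 3 and control 1 to 3 by the numbers in the labels. All 6 came from the same line in the same medium, as triplicates. The labels do not say that the triplicates were separate cultures, so p-values measure the spread between these libraries, which may be technical.

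The methionine cycle makes S-adenosylmethionine, the methyl donor of the cell, from methionine and ATP, and then recycles what is left after a methyl group has been given away. MAT1A and MAT2A encode the catalytic subunits of methionine adenosyltransferase. MAT1A is the form of the adult liver, MAT2A is the form of most other tissues and of many liver tumours, and MAT2B encodes a regulatory subunit. AHCY splits S-adenosylhomocysteine into homocysteine and adenosine, MTR with its reductase MTRR turns homocysteine back into methionine, and CBS sends homocysteine into transsulfuration. In human cells METTL16 binds hairpins in the 3′ untranslated region of MAT2A mRNA. When S-adenosylmethionine is scarce, METTL16 stays on the hairpins and the last intron of MAT2A is removed, whereas otherwise that intron tends to be kept and the RNA stays in the nucleus.

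The METTL16 sites are shown because they tie the MAT2A transcripts in the files to that control. A search of the MAT2A-201 sequence of GENCODE 29 (GRCh38), on the transcript's own strand, for TACAGAGAA and the related TACAGAAAA found 6 sites. All lie on the plus strand in the 3′ untranslated region, in exon 9, and the capitals mark the motif.
MAT2A site 1 (chr2:85543802-85543831): tggcgtaggcTACAGAGAAgccttcaagct
MAT2A site 2 (chr2:85544589-85544618): tgtgatgtcaTACAGAGAAgtcacagggca
MAT2A site 3 (chr2:85544774-85544803): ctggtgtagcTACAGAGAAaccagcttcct
MAT2A site 4 (chr2:85544889-85544918): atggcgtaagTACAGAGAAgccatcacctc
MAT2A site 5 (chr2:85545004-85545033): caaggtgtccTACAGAAAAaccttgggtta
MAT2A site 6 (chr2:85545112-85545141): gctggtgtggTACAGAGAAgccagcttgtt

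The first site starts 40 bases after the stop codon and the last 1350 bases after it. TACAGAGAA was present in the last 1508 bases of 1.43% of the coding transcripts that are at least that long (615 of 42875), and MAT2A was the 1 gene with 4 or more copies there. The main coding transcripts of the other 8 genes held none. The other 5 annotated MAT2A transcripts end before exon 9 and hold none of the sites. A match is a description of the letters and not a measured binding site. Sites 3 to 6 lie where GGCX is annotated on the opposite strand (85544723 to 85545280 on chromosome 2), and reads of the pair cannot be told apart if strand was not used.

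The introns that matter are given with their splice sites, since the counts below refer to them. Capitals mark the first or last pair of intron bases. MAT2A-202, annotated as coding, ends inside intron 8 (chr2:85543035-85543669), of which it holds 574 of 635 bases. It also starts in a first exon of its own, which covers 359 bases of intron 1, and its counts can come from either end. MAT2A-205, annotated as retained intron, holds intron 6 (chr2:85542374-85542564, 191 bases) whole and 184 bases of intron 8. AHCY-204, annotated as retained intron, holds intron 7 of AHCY whole (chr20:34290450-34290550, minus strand, 101 bases). AHCY-206 holds 173 bases of intron 2 and 615 bases of intron 3.
MAT2A intron 8, 5′ site: tcattgtcagGTaaagatggta
MAT2A intron 6, 5′ site: tgggcctcagGTaatgtcattt
MAT2A intron 6, 3′ site: cttaaatcctgtaatttcAGggtgatgc
AHCY intron 7, 5′ site: tccttggccgGTaggtgccaga
AHCY intron 7, 3′ site: ggtcttgggctgcctgacAGgcactttg
AHCY intron 2, 5′ site: gggtgctgagGTgaggcccaca
AHCY intron 3, 5′ site: ggcattccggGTaagtcctgct

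The siSlu7 libraries held 5191452 to 6315740 estimated counts and the siGL2 libraries 7736584 to 8693977. Mitochondrial ribosomal RNA took 29.9% to 35.3% of them in siSlu7 and 16.8% to 24.1% in siGL2. The 7SL RNA of the signal recognition particle took 7.69% to 10.1% in siSlu7 and 14.8% to 22.0% in siGL2. Without structural RNA and mitochondrial genes, edgeR called 2625 genes, and METTL16 (log2 1.09, adjusted p = 0.00724), CBS (-1.04, adjusted p = 0.00677) and MAT1A (-1.35, adjusted p = 0.0129) passed. SLU7 itself had 9.31, 8.23 and 10.4 CPM (counts scaled by TMM to a common library size) in siSlu7, against 20.7, 17.0 and 18.3 CPM in siGL2. Its log2 fold change was -1.002 ± 0.18 (SE; edgeR quasi-likelihood test with Benjamini-Hochberg adjustment, adjusted p = 0.0139). On TPM the fall did not show (limma on log2(TPM + 1), -0.06, adjusted p = 0.868), and with edgeR offsets for transcript length it did not pass (-0.64, adjusted p = 0.117). The call was also lost without knockdown 1 (adjusted p = 0.0556) and without knockdown 2 (adjusted p = 0.0806). Over all genes, 1015 passed as higher and 1359 as lower in siSlu7, and with limma on log2(TPM + 1) the split was 2985 higher and 150 lower. That scale moved the median gene by 0.35.

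Markers of hepatocytes summed to 18609 to 24536 CPM in siSlu7 and 20245 to 30789 CPM in siGL2, and 1 of 11 tested passed as higher. That was TTR, a plasma transport protein, with a mean of 4.03 CPM in siSlu7 and 1.36 CPM in siGL2 (log2 1.54, adjusted p = 0.0243). Of the fetal liver markers, summing to 53.8 to 60.1 CPM in siSlu7 and 57.6 to 79.6 CPM in siGL2, 1 of 3 tested fell (SOX9, log2 -0.82, adjusted p = 0.0275) and DLK1 was listed at 0. Immune markers summed to 49.9 to 56.5 CPM in siSlu7 and 51.4 to 67.5 CPM in siGL2. Of 4 tested 1 passed as higher, PTPRC, with 1.78 CPM in siSlu7 and 0.43 CPM in siGL2, and MS4A1 was listed at 0. PTPRC lay near the floor, with 8 to 12 counts per siSlu7 library and 3 to 4 per siGL2 library. Fibroblast markers summed to 12.5 to 14.1 CPM in siSlu7 and 14.8 to 27.4 CPM in siGL2, with 1 of 2 tested lower (PDGFRB, log2 -0.90, adjusted p = 0.0402) and LUM and COL3A1 listed at 0. The endothelial markers summed to 3.48 to 5.38 CPM in siSlu7 and 3.93 to 4.12 CPM in siGL2, none of the 1 tested passed, and TEK, KDR and ERG were listed at 0. These counts are to be read against 5.93% of all tested genes that passed as higher and 7.94% as lower. These markers' part in the results was not tested.

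Of the 9 genes, METTL16 rose 2.14-fold in siSlu7, CBS fell to 0.49 and MAT1A to 0.39 of the siGL2 level, and the other 6 did not pass the test. So 3 of 9 passed, against 13.9% of all 17109 tested genes. METTL16 was the 1 higher (5.93% of all genes), and MAT1A and CBS were the 2 lower (7.94%). The same 3 were the ones whose groups did not overlap, against 36.6% of all genes. The median log2 fold change of the 9 was -0.03 and that of all tested genes -0.01, and 4 of the 9 lay above 0. In bulk RNA, fewer cells of a kind and less RNA per cell cannot be told apart.

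Control 1 and knockdown 3 deviated from their group means in the same direction (Pearson r = 0.44 across genes, which are not independent replicates). They were not the only such pair. Knockdown 1 deviated with control 3 (r = 0.38) and control 2 (r = 0.24), and against control 1 (r = -0.41). Without both libraries, METTL16 (1.30), CBS (-1.12) and MAT1A (-1.51) also passed on the log2 scale, MAT2B passed as well (0.68, adjusted p = 0.0141), and the other 5 did not (edgeR). The retained-intron use of AHCY also passed without both (1.25, diffSpliceDGE, adjusted p = 0.0106). The labels do not set either library apart. Both were singled out by values of these same data, so the calls without them are not separate support. Over all genes, calls rose from 2374 to 5247 without both (edgeR).

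**Figure D1:**
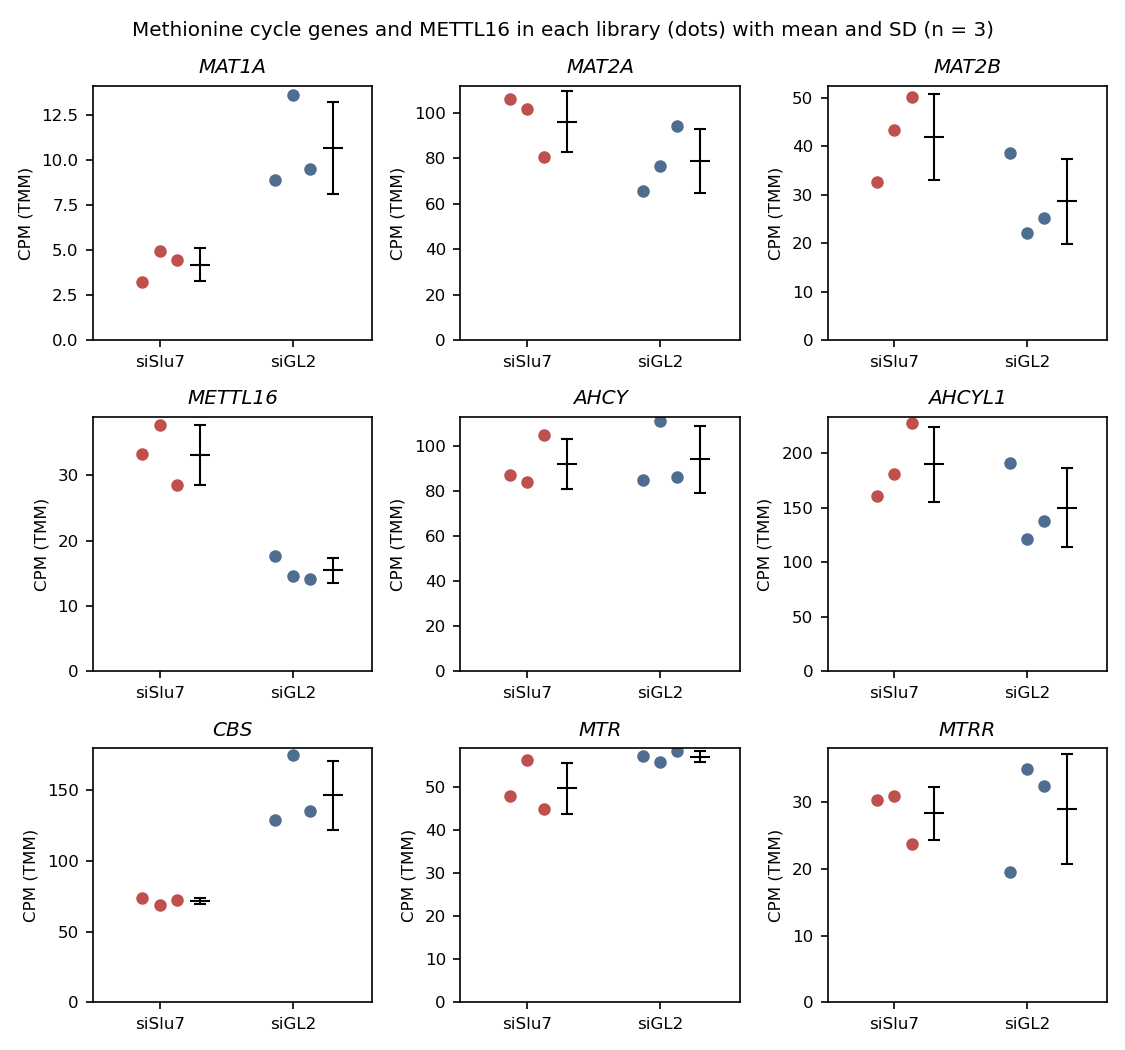
CPM (TMM-scaled, vertical axis) of each gene in the 3 siSlu7 and the 3 siGL2 libraries, 1 dot per library, with mean and SD beside the dots. METTL16 lies higher in siSlu7 (28.6 to 37.7 CPM against 14.2 to 17.7 CPM), MAT1A and CBS lie lower, and the dots of the other 6 genes overlap.

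Of the enzymes that make S-adenosylmethionine, the adult liver form MAT1A (chr10:80271820-80289684, minus strand, GENCODE 29) fell. It had 3.21, 4.94 and 4.45 CPM in siSlu7, against 8.85, 13.6 and 9.51 CPM in siGL2. These are low levels, with 21 to 27 counts per library in siSlu7 and 71 to 102 in siGL2, but every siSlu7 library lay below every siGL2 library. The log2 fold change was -1.35 ± 0.27 (SE, edgeR, adjusted p = 0.0176). The call was lost on leaving out control 2, control 3, knockdown 1 or knockdown 2 (values -1.48 to -1.14 over all single omissions, adjusted p 0.00617 to 0.0740). With limma on log2(TPM + 1) the change was -0.69 (adjusted p = 0.0591). Most of its counts came from the coding transcript MAT1A-201.

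MAT2A (chr2:85539165-85545280, plus strand), the form that METTL16 controls, had 106.1, 101.5 and 80.9 CPM in siSlu7, against 65.8, 76.7 and 94.1 CPM in siGL2. The groups overlapped, since control 3 lay above knockdown 3. Its log2 fold change was 0.29 ± 0.18 (SE, edgeR, adjusted p = 0.317). Among counts of the catalytic pair, MAT1A took 2.93%, 4.64% and 5.22% in siSlu7 and 11.9%, 15.02% and 9.18% in siGL2. These shares did not overlap, and an exact two-sided permutation test gave p = 0.1, the smallest that 3 libraries against 3 allow. MAT2A was the more abundant of the pair in all 6 libraries.

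MAT2B (chr5:163503114-163519336, plus strand), the regulatory subunit, had 32.5, 43.4 and 50.1 CPM in siSlu7 and 38.7, 22.2 and 25.1 CPM in siGL2. Control 1 was the siGL2 library that reached the siSlu7 range. The log2 fold change was 0.55 ± 0.24 (SE, edgeR, adjusted p = 0.161). Without control 1 it was 0.81 and passed (adjusted p = 0.0175).

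METTL16 (chr17:2405562-2511891, minus strand) had 33.3, 37.7 and 28.6 CPM in siSlu7, against 17.7, 14.6 and 14.2 CPM in siGL2. The lowest siSlu7 library lay well above the highest siGL2 library. It was 2.14-fold higher, a log2 fold change of 1.10 ± 0.18 (SE, edgeR, adjusted p = 0.0102). The call was lost without knockdown 2 (0.996, adjusted p = 0.0706). It was the 1 gene of the 9 that passed with limma on log2(TPM + 1), where its change was 1.94 (adjusted p = 0.0130).

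The METTL16 gain was spread over several transcripts and was small in the full-length coding one. That transcript had 8.01, 8.10 and 10.4 CPM in siSlu7 and 3.74, 9.06 and 8.07 CPM in siGL2, so the groups overlapped (log2 0.22 ± 0.41, SE, unadjusted p = 0.616 in edgeR). METTL16-208, annotated as a target of nonsense-mediated decay, had 6.34, 15.02 and 7.15 CPM in siSlu7 and 6.40, 2.04 and 2.60 CPM in siGL2. METTL16-203, also annotated as a decay target, had 2.80, 5.29 and 5.19 CPM in siSlu7 and 1.80, 0.60 and 1.002 CPM in siGL2. The shorter coding METTL16-209 had 5.53, 3.87 and 3.04 CPM in siSlu7 and 0, 0.20 and 0.76 CPM in siGL2.

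In METTL16-203 and METTL16-209 the groups did not overlap, with unadjusted p of 0.0140 and 0.0130. Neither passed after adjustment (edgeR, adjusted p = 0.195 and 0.191). The decay class as a whole averaged 15.1 ± 4.67 CPM in siSlu7 and 5.76 ± 3.19 CPM in siGL2 (SD, n = 3 each). The coding class averaged 12.97 ± 0.88 CPM in siSlu7 and 7.28 ± 3.07 CPM in siGL2. The use within the gene differed by 0.20 ± 0.34 for the decay class and -0.18 ± 0.35 for the coding class on the log2 scale. Neither passed, with wide errors (SE, diffSpliceDGE, adjusted p = 0.9999 for each).

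Per transcript, none of the 46 tested transcripts of the 9 genes passed after adjustment, and none of the 43128 tested in the files did (edgeR, 0%). At an unadjusted p under 0.05, 13 of the 46 passed, against 16.1% of all. Of the 99 transcripts, 66 had a mean of at least 5 estimated counts in a group. The split of reads between overlapping transcripts is an estimate, and its own uncertainty is not in these p-values.

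In MAT2A the balance between the transcript that ends in intron 8 and the fully spliced one differed by less than the spread between libraries. No annotated MAT2A transcript holds intron 8 whole and also carries exon 9. RNA of that form has no transcript of its own to take its reads. This balance therefore cannot measure how often intron 8 is kept, and that was not tested. MAT2A-202, which ends in intron 8, had 52.7, 54.7 and 56.8 CPM in siSlu7 and 41.5, 38.8 and 51.0 CPM in siGL2. It was the most abundant MAT2A transcript in every library, and its groups did not overlap (log2 0.21 ± 0.19, SE, edgeR, adjusted p = 0.652). MAT2A-201, which alone carries exon 9 and the METTL16 sites, had 35.6, 31.8 and 14.3 CPM in siSlu7 and 17.0, 23.8 and 27.6 CPM in siGL2. The groups overlapped throughout, with knockdown 3 the lowest of all 6 libraries (log2 0.14 ± 0.40, SE, adjusted p = 0.896).

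Of the counts of that pair, MAT2A-202 took 59.7%, 63.2% and 79.9% in siSlu7 and 70.9%, 62.0% and 64.9% in siGL2. The means were 67.6% ± 10.8 in siSlu7 and 65.9% ± 4.53 in siGL2 (SD, n = 3 each; exact permutation test, two-sided, p = 0.9). Knockdown 3 was the 1 library that stood apart, with a higher share. Both transcripts that reach into intron 8, MAT2A-202 and MAT2A-205, took 59.9%, 62.6% and 75.6% of all MAT2A counts in siSlu7 and 71.5%, 60.5% and 63.3% in siGL2 (exact permutation p = 0.9). Neither holds that intron whole, so these shares do not measure its retention either.

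**Figure D2:**
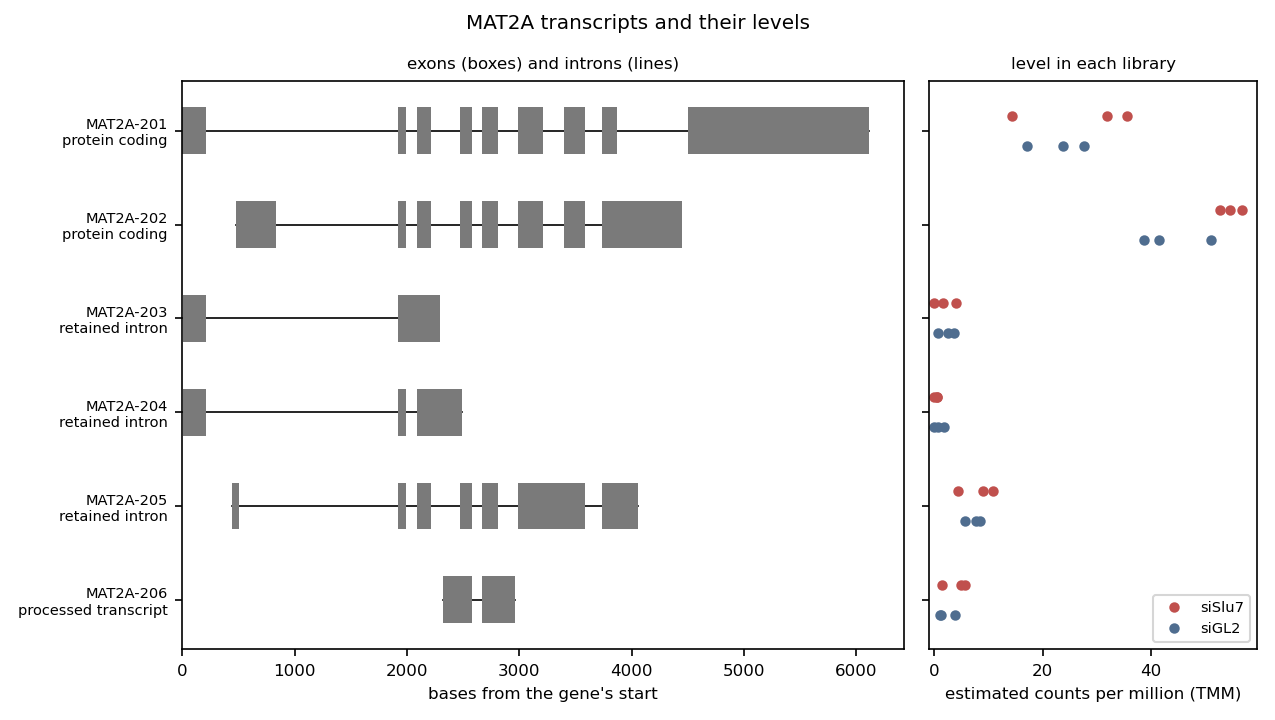
Left, exons (boxes) and introns (lines) of the annotated MAT2A transcripts, in bases from the start of the gene. Right, CPM of each transcript in the siSlu7 (upper dots) and siGL2 (lower dots) libraries. MAT2A-202 lies at 52.7 to 56.8 CPM in siSlu7 and 38.8 to 51.0 CPM in siGL2, while the dots of the other 5 transcripts overlap.

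The transcripts annotated as retained intron took a minor part of MAT2A. Together they were 12.1%, 9.38% and 10.3% of its counts in siSlu7 and 9.53%, 16.9% and 12.5% in siGL2. The mean share was 2.36 percentage points lower in siSlu7, 10.6% ± 1.39 against 12.97% ± 3.73 (SD, n = 3 each), and the groups overlapped (exact two-sided permutation test, p = 0.4). Their use within the gene differed by -0.21 ± 0.28 on the log2 scale (SE, diffSpliceDGE, adjusted p = 0.9999). Since MAT2A-202 is annotated as coding, this share leaves out a transcript that reaches into intron 8.

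MAT2A-205, with intron 6 kept, had 10.8, 8.97 and 4.40 CPM in siSlu7 and 5.58, 7.63 and 8.51 CPM in siGL2. MAT2A-203, with intron 2 kept, had 1.54, 0 and 3.94 CPM in siSlu7 and 0.69, 3.63 and 2.57 CPM in siGL2. MAT2A-204, with intron 3 kept, had at most 0.56 CPM in siSlu7 and at most 1.73 CPM in siGL2, too few to be tested. The short MAT2A-206 had 4.97, 5.59 and 1.48 CPM in siSlu7 and 1.03, 1.12 and 3.80 CPM in siGL2. None of these separated the groups.

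AHCY (chr20:34280268-34311802, minus strand), which clears the inhibitor S-adenosylhomocysteine, did not pass as a gene, while its retained-intron transcripts took a larger part of it in siSlu7. The gene had 87.0, 84.0 and 104.6 CPM in siSlu7 and 84.9, 111.1 and 86.1 CPM in siGL2 (log2 -0.03 ± 0.17, SE, edgeR, adjusted p = 0.912). Within that total, coding transcripts averaged 38.3 ± 4.90 CPM in siSlu7 and 72.4 ± 18.96 CPM in siGL2 (SD, n = 3 each). Retained-intron transcripts averaged 47.2 ± 17.5 CPM in siSlu7 and 15.8 ± 6.27 CPM in siGL2. The groups did not overlap in either class.

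Retained-intron transcripts thus took 42.1%, 44.8% and 64.4% of the AHCY counts in siSlu7, against 27.1%, 11.8% and 13.2% in siGL2. The mean share was 33.1 percentage points higher in siSlu7 (exact two-sided permutation test, p = 0.1, the smallest possible). Their use within the gene rose by 1.11 ± 0.25 on the log2 scale (SE, diffSpliceDGE, adjusted p = 0.0365). It was the 1 of 23 tested classes of the 9 genes that passed, against 1.05% of all 16882 classes. Among retained-intron classes it was 1 of 6, against 1.43% of 4407 higher and 0.0227% lower. The call was lost on leaving out any 1 library other than control 1 (0.94 to 1.42 over the 6 omissions, adjusted p 0.00746 to 0.252).

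AHCY-204, which keeps intron 7, had 21.2, 23.6 and 49.1 CPM in siSlu7 and 15.96, 6.80 and 6.17 CPM in siGL2. AHCY-206, which runs into introns 2 and 3, had 15.5, 14.0 and 18.3 CPM in siSlu7 and 7.05, 6.33 and 5.22 CPM in siGL2. Both were higher in every siSlu7 library than in any siGL2 library. Their log2 fold changes were 1.58 ± 0.52 and 1.23 ± 0.27 (SE), with unadjusted p of 0.0216 and 0.003615 in edgeR, and neither passed after adjustment (adjusted p = 0.229 and 0.123).

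The full coding transcript AHCY-201 had 39.2, 42.7 and 29.5 CPM in siSlu7, against 55.5, 92.9 and 68.9 CPM in siGL2. Its log2 fold change was -1.08 ± 0.28 (SE, unadjusted p = 0.00728, edgeR adjusted p = 0.162). Knockdown 3, with the lowest AHCY-201, had the highest AHCY-204. The 6 AHCY pseudogenes named in the files held 0 to 4 counts in any library. AL035458.2 (34280268 to 34281173 on chromosome 20) and AL356299.2 (34281632 to 34286466) overlap AHCY on its own strand. Reads in these overlaps cannot be assigned to AHCY alone. Neither overlap reaches intron 7 (34290450 to 34290550), intron 3 (34292508 to 34294080) or intron 2 (34294157 to 34295394).

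**Figure D3:**
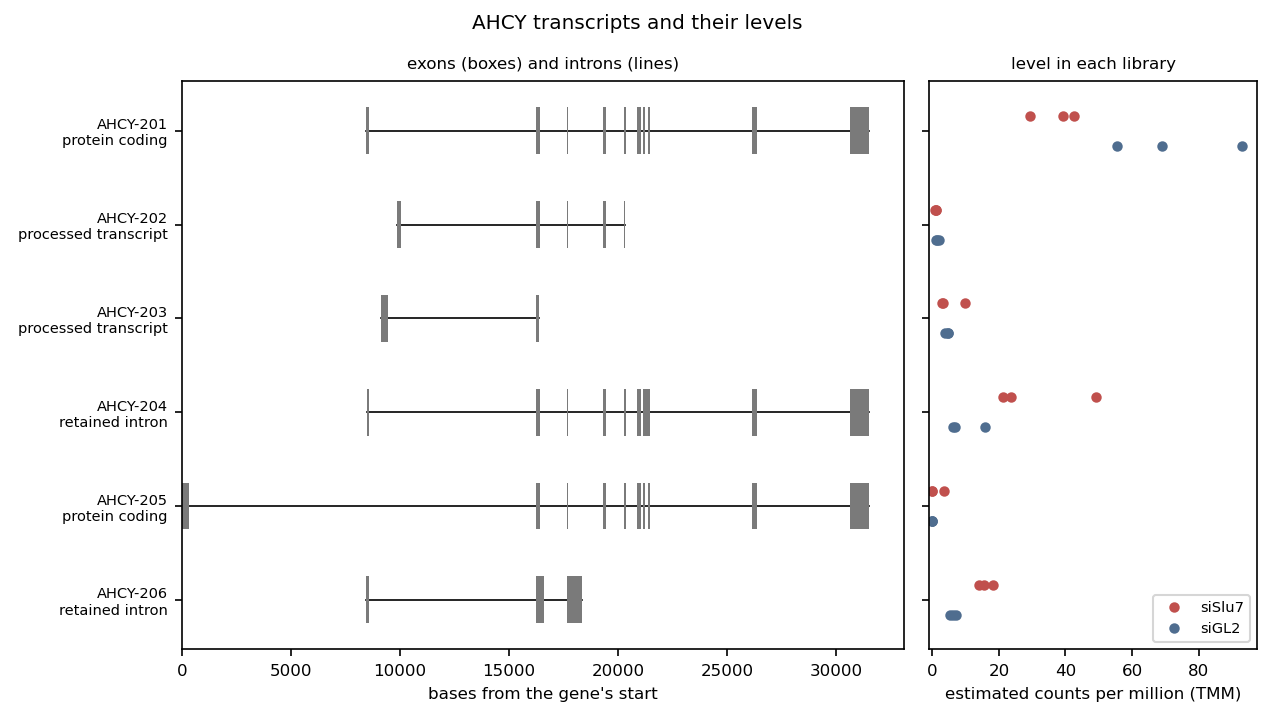
Left, exons (boxes) and introns (lines) of the annotated AHCY transcripts, in bases from the start of the gene. Right, CPM of each transcript in the siSlu7 (upper dots) and siGL2 (lower dots) libraries. AHCY-204 and AHCY-206 lie higher in siSlu7 and AHCY-201 lies lower (29.5 to 42.7 CPM against 55.5 to 92.9 CPM), with no overlap.

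AHCYL1 (chr1:109984686-110023741, plus strand) is a relative of AHCY known as a regulator of the inositol trisphosphate receptor. It had the highest mean CPM of the 9 genes in both groups, although CBS was higher in control 2 (174.4 CPM). AHCYL1 had 161.1, 181.3 and 227.7 CPM in siSlu7 and 191.1, 121.9 and 138.1 CPM in siGL2. Control 1 lay within the siSlu7 range (log2 0.34 ± 0.22, SE, edgeR, adjusted p = 0.317). One of its coding transcripts, AHCYL1-203, whose first exon runs 371 bases into intron 1 of the coding form of 3943 bases, was higher in every siSlu7 library. It had 15.9, 16.9 and 19.1 CPM in siSlu7, against 4.19, 1.30 and 2.35 CPM in siGL2.

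The log2 fold change of AHCYL1-203 was 2.60 ± 0.46 (SE, unadjusted p = 0.00116), and it did not pass after adjustment over all transcripts (edgeR, adjusted p = 0.108). The form of 3943 bases had 39.9, 55.2 and 55.8 CPM in siSlu7 and 66.7, 49.55 and 47.2 CPM in siGL2, and these overlapped. The coding form of 2503 bases had 61.3, 51.0 and 53.6 CPM in siSlu7 and 30.4, 34.5 and 39.0 CPM in siGL2, without overlap (log2 0.56 ± 0.20, SE, unadjusted p = 0.0296, edgeR adjusted p = 0.257). By the Simes method none of the 8 genes tested passed for transcript use, against 2.9% of 8869 genes. None of their transcripts passed, against 0.89% of 36194 transcripts. By the gene-level F test of the same fit, AHCY (adjusted p = 0.0155) and AHCYL1 (adjusted p = 0.0190) passed, against 4.98% of all genes, and CBS did not (adjusted p = 0.0573).

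CBS (chr21:43053191-43076943, minus strand), the entry to transsulfuration, fell. It had 73.4, 69.0 and 72.1 CPM in siSlu7, against 129.1, 174.4 and 135.2 CPM in siGL2. The siSlu7 libraries lay close together and far below the siGL2 ones. The log2 fold change was -1.03 ± 0.16 (SE, edgeR, adjusted p = 0.0102), and the call was lost without knockdown 2 (-1.004, adjusted p = 0.0736) and without knockdown 1 (-1.05, adjusted p = 0.0503).

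CBS has a near-identical copy, CBSL (chr21:6444869-6468040), which had 9.46, 14.1 and 12.2 CPM in siSlu7 and 5.86, 5.58 and 7.10 CPM in siGL2 (log2 0.94, edgeR, adjusted p = 0.0292). CBSL-207, annotated as retained intron, had 8.17, 14.2 and 12.3 CPM in siSlu7 (from unrounded counts) and 5.82, 2.39 and 4.48 CPM in siGL2. The coding transcripts of CBSL were listed at 0 in every siSlu7 library. The split of reads between CBS and CBSL is uncertain. Their sum gave a log2 fold change of -0.87 (edgeR, adjusted p = 0.0148). CBS is also rich in G and C (59.9%, against a median of 49.1% over tested genes), and with offsets for GC content and length its change was -0.59 (adjusted p = 0.0308). With limma on log2(TPM + 1) the change was -0.28 (adjusted p = 0.427).

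The coding transcripts of CBS were lower in every siSlu7 library than in any siGL2 library. They averaged 22.3 ± 8.58 CPM in siSlu7 and 85.2 ± 25.8 CPM in siGL2, while its retained-intron transcripts averaged 43.3 ± 10.3 CPM in siSlu7 and 55.5 ± 2.38 CPM in siGL2 (SD, n = 3 each). The retained-intron values overlapped, through knockdown 3. They leave out CBSL-207, which was higher in every siSlu7 library than in any siGL2 library. Retained-intron transcripts thus took 59.9%, 47.3% and 73.8% of CBS counts in siSlu7 and 44.6%, 32.1% and 39.2% in siGL2 (exact permutation p = 0.1). As shares of TPM they were 59.1%, 59.0% and 76.3% in siSlu7 and 56.3%, 54.8% and 59.5% in siGL2, which overlapped. The use of that class differed by 0.47 ± 0.21 on the log2 scale and did not pass (SE, diffSpliceDGE, adjusted p = 0.447).

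The full coding transcript CBS-204 had 0.80, 25.0 and 7.48 CPM in siSlu7, against 55.04, 101.1 and 64.0 CPM in siGL2. Its log2 fold change was -2.85 ± 1.05 (SE, unadjusted p = 0.0329, edgeR adjusted p = 0.266). In knockdown 1, where CBS-204 was near 0, another coding transcript, CBS-203, was listed at 19.4 CPM, and it was at most 0.77 CPM elsewhere. The coding CBS-202 had 0, 5.73 and 5.49 CPM in siSlu7 and 8.82, 10.7 and 6.24 CPM in siGL2. The split of reads between such similar transcripts is an estimate. Among retained-intron transcripts the directions were mixed. CBS-217 had 2.41, 4.29 and 4.85 CPM in siSlu7 and 10.6, 23.8 and 21.5 CPM in siGL2, whereas CBS-214 had 8.85, 5.68 and 16.3 CPM in siSlu7 and 4.47, 2.47 and 3.25 CPM in siGL2.

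**Figure D4:**
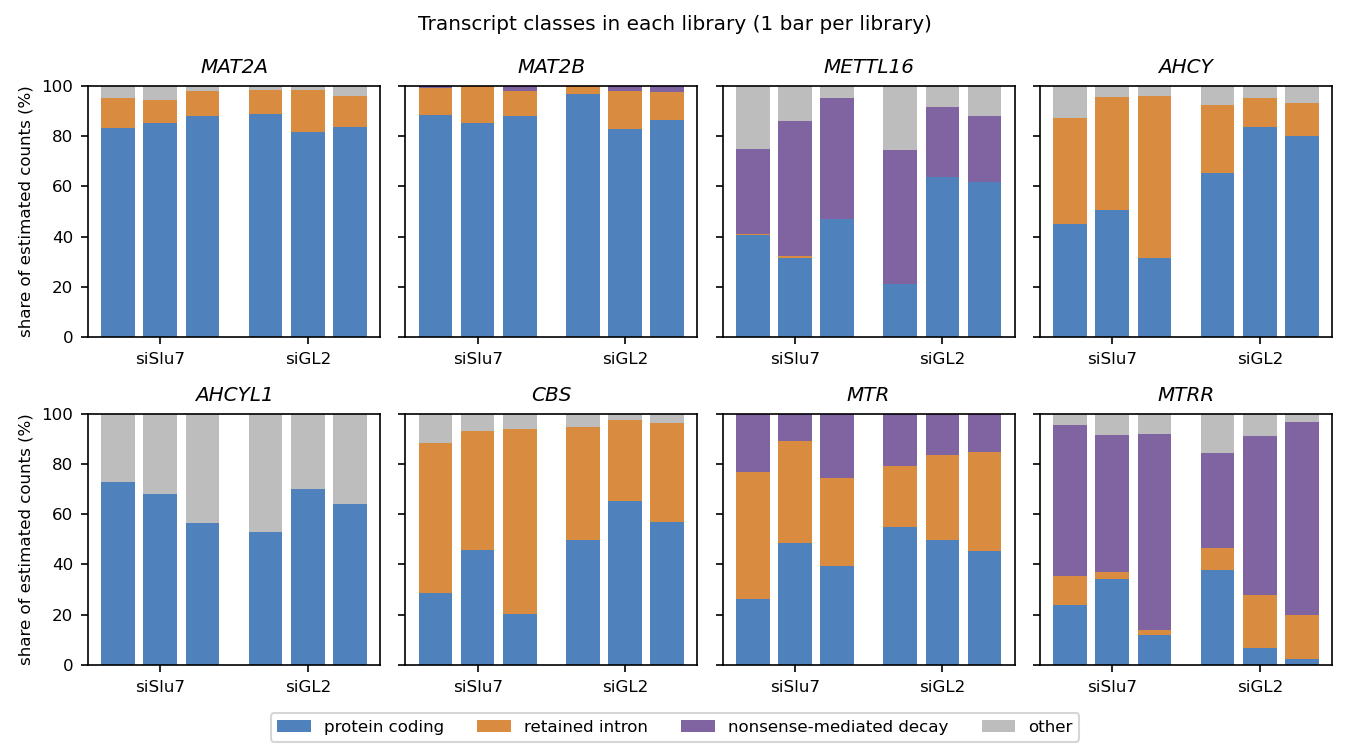
Share of each gene's estimated counts (percent, vertical axis) held by each transcript class (coding, retained intron, decay target or other), 1 bar per library, siSlu7 left of siGL2. Retained-intron shares of AHCY are 42.1% to 64.4% in siSlu7 and 11.8% to 27.1% in siGL2, while those of MAT2A overlap.

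The remethylation pair did not pass. MTR (chr1:236795281-236903981, plus strand), methionine synthase, had 47.9, 56.3 and 44.9 CPM in siSlu7 and 57.2, 55.8 and 58.3 CPM in siGL2 (log2 -0.20 ± 0.14, SE, edgeR, adjusted p = 0.373). Knockdown 2 lay within the siGL2 range. Its reductase MTRR (chr5:7851186-7906025, plus strand) had 30.4, 30.9 and 23.7 CPM in siSlu7 and 19.6, 35.0 and 32.5 CPM in siGL2 (log2 -0.03 ± 0.23, SE, adjusted p = 0.942). Control 1 was the lowest of all 6.

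Retained-intron transcripts of MTR took 50.6%, 40.5% and 35.1% in siSlu7 and 24.1%, 33.8% and 39.6% in siGL2 (exact permutation p = 0.2). Those of MTRR took 11.5%, 2.69% and 1.98% in siSlu7 and 9.06%, 21.0% and 17.7% in siGL2 (exact permutation p = 0.2), and those of MAT2B 10.9%, 14.7% and 9.88% in siSlu7 and 3.36%, 15.2% and 11.1% in siGL2 (exact permutation p = 0.9). All of these overlapped. Of MTRR counts, a mean of 64.3% in siSlu7 and 59.3% in siGL2 lay in transcripts annotated as decay targets. FASTKD3 and C5orf49 overlap MTRR on the opposite strand, and RPSAP21 lies within MTR.

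On the length-corrected TPM scale the order of levels in siSlu7 ran from AHCYL1 (91.8 ± 28.1 TPM), AHCY (41.7 ± 7.14), CBS (38.8 ± 5.64) and MAT2A (38.1 ± 4.80) to MTRR (20.9 ± 3.63), MAT2B (20.8 ± 10.95), METTL16 (17.8 ± 2.04), MTR (6.70 ± 0.98) and MAT1A (1.30 ± 0.32, SD, n = 3 each). AHCY, CBS and MAT2A did not differ beyond their SDs, nor did MTRR, MAT2B and METTL16. In siGL2 the order was AHCYL1 (53.9 ± 23.8 TPM), CBS (47.2 ± 4.52), AHCY (26.9 ± 1.59), MAT2A (22.0 ± 7.08), MTRR (18.8 ± 5.56), MAT2B (9.56 ± 6.30), MTR (5.06 ± 0.88), METTL16 (4.01 ± 1.46) and MAT1A (2.73 ± 0.73). There the neighbours overlapped within 1 SD of each mean, other than CBS and AHCY. METTL16 thus stood above MTR in siSlu7 and within 1 SD of it in siGL2. Transcripts outside the coding class held 63.7% to 78.9% of the AHCYL1 TPM in siSlu7 and 66.8% to 81.7% in siGL2.

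**Figure D5:**
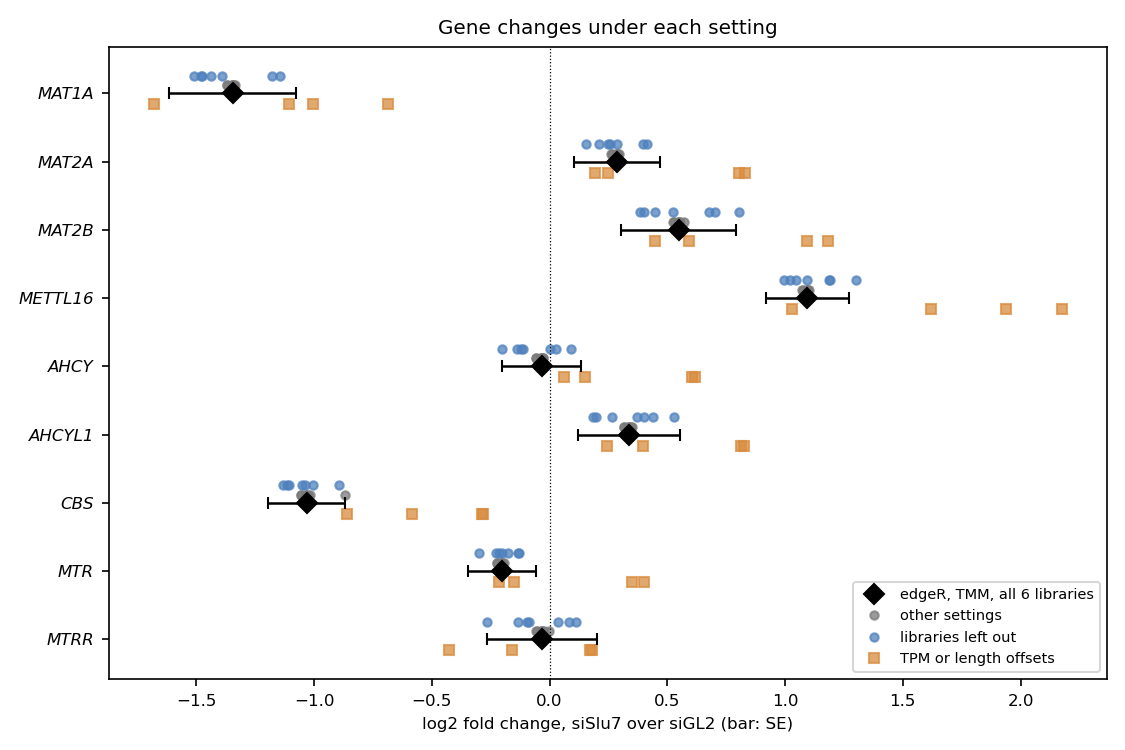
Log2 fold change of each gene, siSlu7 over siGL2 (horizontal axis; diamond with SE, edgeR on all 6 libraries), and the value under every other setting tried. METTL16 stays right of 0 and MAT1A and CBS stay left of it under all settings, while AHCY, MTR and MTRR lie on either side.

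Other genes around the cycle were counted by list, to be read against 5.93% of all tested genes higher and 7.94% lower. Of 11 tested genes for the rest of the cycle and remethylation, 1 rose (CBSL, with its gain in the retained-intron CBSL-207) and 1 fell. The fallen one was BHMT2, which remethylates homocysteine from S-methylmethionine, with 34.0, 28.0 and 36.5 CPM in siSlu7 and 52.3, 59.8 and 52.3 CPM in siGL2 (log2 -0.74, edgeR, adjusted p = 0.0210). The median of this list was -0.04, against -0.01 for all genes. Of 17 folate cycle genes 1 fell (list median -0.13). It was AMT, of the glycine cleavage system, with 3.36, 3.66 and 2.78 CPM in siSlu7 and 6.11, 11.8 and 10.8 CPM in siGL2 (log2 -1.54, adjusted p = 0.0174).

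None of the 8 transsulfuration and glutathione genes passed (median -0.25). The nearest were MPST, which handles mercaptopyruvate sulfur (log2 -0.79, edgeR, adjusted p = 0.0561), and SUOX, sulfite oxidase (log2 -0.61, adjusted p = 0.0983). Of 12 genes of methionine salvage and polyamine synthesis 1 rose (median 0.01). It was ODC1, ornithine decarboxylase, with 105.6, 118.9 and 98.1 CPM in siSlu7 and 74.1, 68.1 and 71.7 CPM in siGL2 (log2 0.59, adjusted p = 0.0298). Of 9 methyltransferases for small molecules, which use S-adenosylmethionine, 1 fell (median -0.26). It was NNMT, which methylates nicotinamide, with 28.4, 30.4 and 35.6 CPM in siSlu7 and 51.1, 56.6 and 46.8 CPM in siGL2 (log2 -0.71, adjusted p = 0.0224).

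METTL16 belongs to the writers, erasers and readers of N6-methyladenosine, of which 19 others were tested. Among them 2 rose (5.93% of all tested genes did) and 1 fell (7.94% did), with a median of 0.36. The risen ones were YTHDF2, a reader that speeds decay of methylated mRNA (log2 0.77, edgeR, adjusted p = 0.0154), and ZCCHC4, which methylates ribosomal RNA (log2 1.25, adjusted p = 0.0210). ZCCHC4 had 11.9, 12.8 and 14.3 CPM in siSlu7 and 5.86, 3.46 and 6.98 CPM in siGL2. The fallen one was the demethylase ALKBH5, with 37.9, 36.4 and 38.6 CPM in siSlu7 and 61.5, 96.6 and 75.8 CPM in siGL2 (log2 -1.05, adjusted p = 0.0124).

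Of 12 genes listed around cleavage and intron detention 3 rose and none fell (median 0.41). Over all tested genes 5.93% passed as higher and 7.94% as lower. The list also held LARP7, MEPCE, SART3, LSM2 and LSM8, which are factors of small nuclear RNA. CLK4, a kinase of splicing factors whose own introns are known to be detained, had 56.9, 70.8 and 76.4 CPM in siSlu7 and 31.7, 24.3 and 24.7 CPM in siGL2 (log2 1.34, edgeR, adjusted p = 0.00883). Its relative CLK2 was higher by 0.91 (adjusted p = 0.0289) and SART3, a recycling factor of U4 and U6 particles, by 0.95 (adjusted p = 0.0360). In CLK2 and SART3 the siGL2 library nearest to the siSlu7 range was control 1.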

How the data were processed

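Abundance tables of 6 libraries were analysed. Per the labels' protocols, these were ScriptSeq mRNA-Seq libraries of polyA RNA. Estimated counts per transcript, not normalized, are the authors' deposited values, as are the TPM values, which adjust those counts for effective length, per the file headers. FastQC 0.11.8, Trimmomatic 0.38, kallisto 0.46.1, sleuth 0.30.0 and the build GRCh38 are named, without roles, per the submitters' processing notes. Strand handling and the GENCODE release are not given in the sources at hand.

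Of the 234485 transcript records in a file, 159 were pseudoautosomal copies on chromosome Y and were merged with their X counterparts. Counts were then summed to 60607 genes and rounded. The fits used edgeR 4.0.16 in R 4.3.3: TMM, filterByExpr (minimum count 10, total 15), the quasi-likelihood test for genes and transcripts, and diffSpliceDGE for usage, with Benjamini-Hochberg adjustment over the whole table at 0.05 and no replicate block. CPM were scaled by TMM. Transcript classes were the types in the files. Shares were compared by exact permutation. The steps were tested on counts simulated with the same dispersion throughout and no outlying library. That test cannot show how they perform with the uneven libraries of these data. Depth was 5191452 to 8693977 counts per library.

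Structures, coordinates and sequences came from GENCODE 29 (GRCh38). Its transcript versions differ in part from those in the files, among them MAT2A-201, with 2819 bases in GENCODE 29 and 2817 in the files. GC content was known for 97.6% of tested genes and all 9 members.

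The members and lists were chosen with earlier results of these data known. Named are the 9 genes, SLU7, their transcripts with a mean of at least 5 counts in a group (in full for MAT2A), from each other list at most 4 genes that passed, by smallest p (2 where none did), and the 5 genes most like MAT2A over the libraries. The alternatives were RLE factors, no filter, another filter (an average of 1 CPM plus 10 counts in 3 libraries), a replicate block, leaving out each library, leaving out control 1 and knockdown 3, DESeq2 1.42.0 on the counts, limma 3.58.1 on log2(TPM + 1) or log2(TPM + 0.1), length offsets, no structural RNA, the gene-level usage test, retained introns counted together with decay targets, and shares of TPM. CBS and CBSL summed, and GC content with length offsets, were added after seeing the data. Control 1 and knockdown 3 were also singled out by values of these data.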

Additional observations from a re-analysis of the deposited data

How the results depend on the processing

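Leaving out 1 library at a time gave 0 to 4455 called genes (2374 with all 6), with 0 to 4 of the 9 genes among them (3 with all). It gave 156 to 808 genes by transcript usage (257 with all), with 0 to 3 of the 8 tested, and 39 to 531 gene classes (178 with all), with 0 to 1 of 23. The lowest gene count was without knockdown 2 (edgeR; 4244 at an unadjusted p under 0.05) and the highest without control 1. The retained-intron share of MAT2A was 0.382 to 4.085 points lower in siSlu7 over these omissions (differences of -4.085 to -0.382), and that of AHCY 26.07 to 37.91 points higher. Without control 1 and knockdown 3 together there were 5247 genes, 865 genes by usage (3 of the 8: AHCYL1, METTL16 and MTRR) and 585 classes (2 of 23: retained introns of AHCY and coding transcripts of MTRR). 

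The labels do not say whether the replicate numbers pair the libraries. Deviations of same-numbered libraries correlated at -0.41, 0.11 and -0.37, and those of differently numbered ones at -0.29 to 0.44. With 3 libraries per group these values cannot decide whether the numbers are pairs. With the replicate number as a block, edgeR called 0 genes (4210 at an unadjusted p under 0.05), 0 of the 9 genes passed, 87 genes passed by usage and 14 classes, with 0 of the 23. Under the block METTL16 had an adjusted p of 0.0586. Length offsets called 967 genes, limma on log2(TPM + 1) or log2(TPM + 0.1) 1 of the 9 genes each, no filter 94 transcripts, none of them of the 9 genes, and the gene-level usage test 442 genes with 2 of the 8. Measured in TPM, the retained-intron share of MAT2A was lower by 5.41 points (-5.41).

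Signs turned only in values that did not pass. AHCY ranged from -0.137 to 0.0921 over the single omissions and was at 0.603 and 0.619 on TPM, 0.0629 with offsets for length, and 0.151 with those for GC content added. MTR was at 0.349 and 0.403 on TPM, against a shift of 0.35 and 0.52 of the median gene. MTRR ranged from -0.265 to 0.114 over the omissions and was at 0.170 and 0.179 on TPM. Among transcripts, the omissions gave -0.100 to 0.450 for MAT2A-201, -1.645 to 0.123 for MAT2A-203 and -0.224 to 0.340 for MAT2A-205, which was at -0.0186 under the block. The retained-intron use of MAT2B ranged from -0.104 to 0.617 over the omissions and was at -0.0144 without control 1 and knockdown 3. The cause of these moves was not tested. Over all alternatives, 376 values kept their direction and their side of the threshold or, for counts of calls, lay within 1.5 times the value with all settings as described, and shares lay within 1 SD. Of the others 39 counts or shares moved further, 26 values lost their call, 2 gained one and 23 changed sign. Low counts limit the precision of MAT1A, with 21 to 27 per siSlu7 library.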

Other observations

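Over the 6 libraries, the 5 protein-coding genes of at least 5 CPM whose log2 CPM was most like that of MAT2A, of 9919 compared, were NUP153 (Pearson r = 0.995), TMEM209 (0.986), TRAPPC13 (0.985), TFAM (0.984) and PRMT3 (0.984). The points are the same 6 libraries, and share depth and normalization with MAT2A. NUP153, a nuclear pore protein, had 69.9, 61.7 and 43.2 CPM in siSlu7 and 32.3, 42.7 and 56.6 CPM in siGL2. TFAM, which packs and transcribes mitochondrial DNA, had 21.2, 19.2 and 12.1 CPM in siSlu7 and 8.23, 11.8 and 14.6 CPM in siGL2. As in MAT2A, knockdown 3 was the lowest siSlu7 library and control 3 the highest siGL2 library in both. None of the 5 passed between siSlu7 and siGL2 (edgeR, adjusted p 0.169 to 0.440).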
